A study of Homo sapiens with 4 samples.

Results

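Immunoreceptor signaling was followed through 5 genes: FGR, a tyrosine kinase of the Src family; CD3E, the epsilon chain of the CD3 complex; PTPN6, the phosphatase SHP-1; LAT, a membrane adaptor; and RHOH, a GTPase of blood cells. They are 5 of the 1648 genes in the deposited expression table and were selected by name from that table. The rows of the table had been selected by the authors' test of ATRA against control (all but 3 rows have an adjusted p-value under 0.01), so this same contrast chose the members, and their values are given as a description with no test. Poly(A) RNA was sequenced from HL-60 cells, a human myeloid leukemia line. These cells have the properties of immature myeloid cells and mature toward neutrophils under all-trans retinoic acid (ATRA). The ATRA group had 2 libraries from cells kept with 1 µM ATRA for 4 days, and the control group had 2 libraries from cells kept with the solvent ethanol for the same time, with medium and compound renewed on day 2. All samples came from the same established line, and whether the libraries of a group were separate cultures is not given in the labels.

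Receptors of this kind have no enzyme of their own. Chains such as CD3E carry a paired tyrosine motif, the ITAM, that Src family kinases such as FGR phosphorylate. Kinases of the Syk family then bind the phosphorylated motif, and adaptors such as LAT collect phospholipase and exchange factors. SHP-1, the product of PTPN6, is recruited by inhibitory receptors through their ITIM motifs and removes the phosphates again. RHOH lacks the usual GTPase activity and in lymphocytes is needed for the recruitment of the kinases LCK and ZAP70. Myeloid cells use the same machinery below Fc receptors, integrins and lectins, whereas CD3E, LAT and ZAP70 are best known from T cells, and LAT also from mast cells and platelets.

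The deposited table gives only group means, and the reads of each library were restored from them as described in the processing. Values are normalized reads, that is, whole reads divided by the size factor of the library. Within a group they carry the letters a and b, which are not tied to the replicate numbers of the samples. The reads in the 1648 listed genes came to between 3288055 and 5576516 per library. The authors' test covered 12265 genes, and 1645 of them, 13.4%, are in the table with an adjusted p-value under 0.01. For a gene that the table lacks there is no value here, since it was untested or missed that limit. In all 1648 listed genes, 100% of the table, the libraries of the groups did not overlap, because the rows had been chosen for a difference. The labeled myeloid identity was checked with 12 markers. Of these, 2 were in the table, the integrin chain ITGAM and the growth factor receptor CSF3R, and both were higher with ATRA. MPO, ELANE and the other 8 have no value, so the identity of the control cells could not be read from this table.

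Of the 5 members, 3 were higher with ATRA (FGR, CD3E and PTPN6) and 2 were lower (LAT and RHOH). Among all listed genes 61.8% were higher and 38.2% were lower, so the split of the members was close to that of the table. The log2 fold changes of ATRA over control ran from 11.64 for FGR to -2.07 for LAT, beside a median of 1.87 over the higher listed genes and -1.47 over the lower ones. In bulk RNA a smaller number of cells that express a gene and less RNA of it per cell cannot be told apart.

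**Figure D1:**
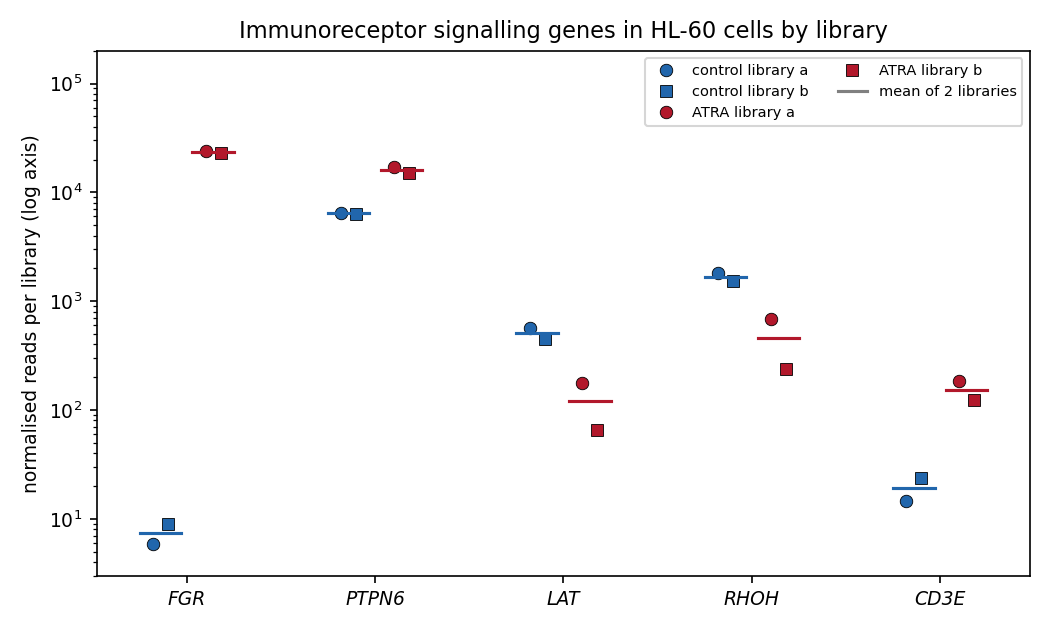
Normalized reads (log axis) of the 5 members in each of the 4 libraries, with control libraries in blue, ATRA libraries in red, circles for library a, squares for library b and a bar at the mean of each group. FGR goes from 8.94 normalized reads or fewer to 22821 or more, PTPN6 is at 6314 or more in both groups, and the ATRA libraries of LAT and RHOH lie far apart, each with library a on top.

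**Figure D2:**
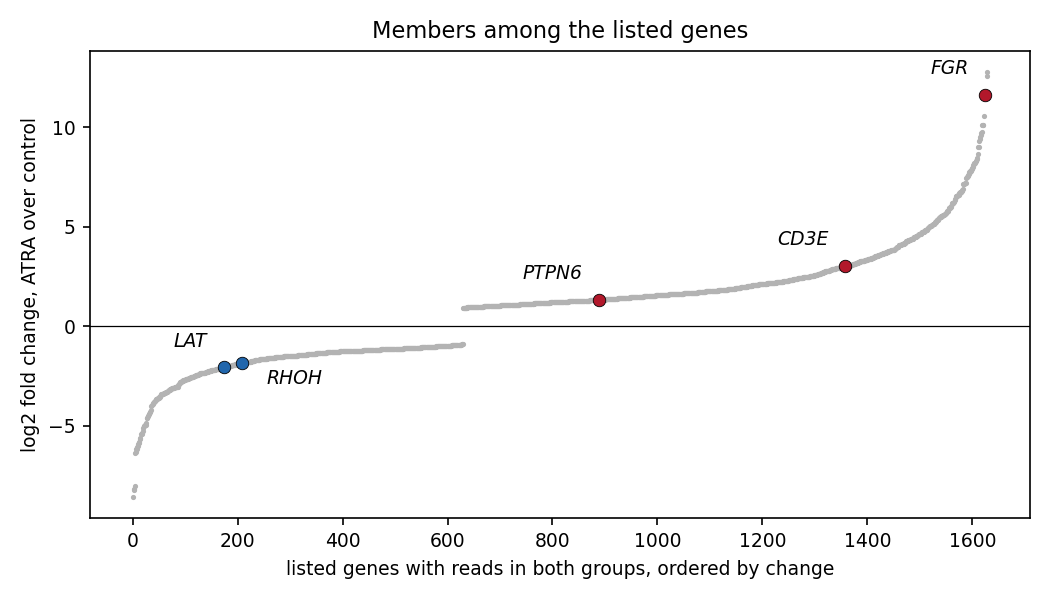
Log2 fold change of ATRA over control for the listed genes that had reads in both groups, ordered from the lowest to the highest, with each gene as a gray point and the members as colored points. FGR lies at the upper end at 11.64, CD3E at 3.01 and PTPN6 at 1.33 lie along the rise, and RHOH at -1.87 and LAT at -2.07 lie among the lower genes.

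FGR went from near silence to a strong signal. Its product is a Src family kinase of neutrophils, monocytes and macrophages that acts below integrins and Fc receptors. The gene (chromosome 1, 27938575 to 27961696 on GRCh37, minus strand) had 5.83 and 8.94 normalized reads in control libraries a and b, and 24172 and 22821 in ATRA libraries a and b. The controls held 14 reads in all and the ATRA libraries 49451, with no overlap between the groups, as in every listed gene. The mean of the controls was 7.39 ± 2.20 (SD, n = 2) and that of the ATRA libraries 23497 ± 955 (SD, n = 2), which is 3181-fold. Counting error alone puts this ratio between 1926 and 5913 (95% interval), and the other counting intervals given cover counting error only as well. The lowest ATRA library exceeded the highest control library 2553-fold. Among the genes with control reads only 4 had a larger ratio, each on 1 to 5 control reads. A further 18 higher genes had 0 control reads, which gives a lower bound only, and were not ranked. FGR thus had the largest ratio among the listed genes that held more than 5 control reads.

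The start of FGR is shown because no other member changed as much. RefSeq gives 2 promoter windows for FGR on GRCh38.p14, each from 250 bases before a transcript start to 50 bases after it, and the window printed is the one in which a searched motif was found. Windows were searched on both strands for AGGTCA and AGTTCA (hexamers that retinoid receptors bind in pairs), GAGGAAGT (a PU.1 site), TGTGGT (a RUNX site) and TTGCGCAA (a C/EBP site). Capitals mark matches.
FGR, chr1:27626548-27626847, minus strand: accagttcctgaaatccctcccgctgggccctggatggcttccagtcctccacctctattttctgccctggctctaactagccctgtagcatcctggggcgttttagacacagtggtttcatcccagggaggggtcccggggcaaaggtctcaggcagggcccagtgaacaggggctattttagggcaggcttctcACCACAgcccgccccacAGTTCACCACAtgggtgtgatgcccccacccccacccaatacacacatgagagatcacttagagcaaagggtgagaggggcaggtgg
This window holds AGTTCA at 37 bases before the start, and TGTGGT on the opposite strand (printed as ACCACA) at 54 and 32 bases before it. The AGTTCA and the nearer ACCACA share 1 base. AGTTCA occurs in 10.4% of the 35116 promoter windows of the RefSeq table and TGTGGT in 13.1%, so such matches are common, and a match is a description of the letters only.

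LYN, another Src family kinase of blood cells, was also higher. This kinase, which phosphorylates both activating and inhibitory receptors, had 1704 and 1807 normalized reads in the controls and 7894 and 6618 with ATRA, 4.13-fold higher. As in every listed gene, the groups of LYN did not overlap. FYN, LCK and SRC were not in the table. None of the 7 Syk and Tec family kinases on the list was in it either, so the kinases that act next after FGR have no value here. Within 100 kb of FGR the table held 1 other gene, the interferon-stimulated gene IFI6, which lies 30879 bases away and was higher with ATRA (52.8 normalized reads in controls and 596 with ATRA, as means).

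CD3E was higher with ATRA, on few reads. The gene (chromosome 11, 118175445 to 118186890 on GRCh37, plus strand) had 14.6 and 23.5 normalized reads in the controls and 183 and 124 with ATRA. Those values rest on 36 control reads and 325 ATRA reads. The mean went from 19.0 ± 6.28 (SD, n = 2) to 153 ± 41.9 (SD, n = 2), which is 8.06-fold (95% counting interval 5.84 to 12). The lowest ATRA library exceeded the highest control library 5.27-fold. CD3D and CD3G, the partner chains of CD3E in the T cell receptor complex, lie 22900 and 28169 bases away and were not in the table, nor was the zeta chain CD247. MPZL3, a membrane protein gene 52365 bases away, was higher, from 69.2 to 403 normalized reads. JAML, 79638 bases away and listed under its older symbol AMICA1, was also higher. Its mean went from 52.6 to 2399 normalized reads, which is 45.6-fold.

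Few markers of lymphocytes had a value to set beside CD3E. Of 24 T cell and natural killer cell markers 3 were in the table, CD3E higher and TRAT1 and NKG7 lower. Summed over these 3 genes there were 267 and 224 normalized reads in ATRA libraries a and b, and 326 and 460 in control libraries a and b. The defining T cell genes CD3D, CD3G, CD2, CD8A, LCK and ZAP70 were not in the table, and of 10 B cell markers 0 were. Whether cells of another type contributed to CD3E was not tested.

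Receptors that signal through an ITAM were higher wherever they were listed. FCER1G, the common gamma chain of Fc receptors and the only other ITAM chain of the 10 on the list, had 96.3 and 482 normalized reads in the controls and 2620 and 5097 with ATRA. Its ratio of 13.4-fold was 40.1-fold without control library b and 8.01-fold without control library a. Of the 12 receptors that couple to such chains 6 were present, each of them higher, and their median log2 fold change was 4.97. Among all listed genes 61.8% were higher, and the median was 1.22. CD300LB, an activating receptor of myeloid cells, went from 405 and 378 normalized reads to 13494 and 12879, which is 33.7-fold. CLEC7A, the receptor for fungal glucans that carries an ITAM-like motif itself, was 29.0-fold higher. TREM1, which amplifies inflammatory signals, had 0 reads in the controls and 43.7 and 62.8 normalized reads with ATRA. Its ATRA mean was 34.1-fold higher if 3 reads over the controls are taken as the limit that a count of 0 allows. The 95% counting interval of its ratio starts lower, at 27.1. CLEC4E, a receptor for mycobacterial glycolipid, had 194 and 83.8 normalized reads with ATRA against 1 read in the controls, or 248-fold (95% counting interval 48.4 to 10770). It was 150-fold without ATRA library a and 124-fold without control library a. Of the 7 Fc receptors without an ITAM of their own 1 was present, the neonatal Fc receptor chain FCGRT. It had 9 control reads and was 61.0-fold higher (95% counting interval 30.3 to 127), 40.1-fold without ATRA library a and 30.5-fold without control library b.

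PTPN6 was abundant in both groups and was higher with ATRA by a moderate and even amount. The gene (chromosome 12, 7055631 to 7070479 on GRCh37, plus strand) had 6483 and 6314 normalized reads in the controls and 17041 and 15027 with ATRA. Both groups were tight: the control libraries lay 1.03 times apart and the ATRA libraries 1.13 times. The mean went from 6399 ± 119 (SD, n = 2) to 16034 ± 1424 (SD, n = 2), which is 2.51-fold, and the closest pair of libraries still differed 2.32-fold. Of the 14 protein-coding genes within 100 kb of PTPN6, 0 were in the table.

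RefSeq gives 2 promoter windows for PTPN6. The window below is shown because it was the only one among the members that held the PU.1 motif.
PTPN6, chr12:6946327-6946626, plus strand: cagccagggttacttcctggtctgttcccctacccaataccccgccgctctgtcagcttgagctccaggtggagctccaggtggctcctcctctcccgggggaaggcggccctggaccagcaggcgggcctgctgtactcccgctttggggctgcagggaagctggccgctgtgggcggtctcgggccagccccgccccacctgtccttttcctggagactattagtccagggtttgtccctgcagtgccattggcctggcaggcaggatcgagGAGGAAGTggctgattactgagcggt
GAGGAAGT lies 24 bases after the start of this window's transcript. It occurs in 2.59% of all 35116 windows, in 5.86% of the 1194 windows of higher listed genes and in 1.37% of the 656 windows of lower listed genes. The other motifs of the search had shares in higher and lower listed genes of 11.8% and 12.2% (AGGTCA), 9.46% and 5.64% (AGTTCA), and 13.2% and 9.15% (TGTGGT). TTGCGCAA was rare, in 0.151% of all windows.

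Of the 13 genes on the list of inhibitory enzymes and CD45 the table held 4, PTPN6 among them. Each of them was higher, as were 61.8% of all listed genes, with log2 fold changes between 1.33 and 1.67. PTPN22, a phosphatase that acts on Src family kinases, had 1799 and 2735 normalized reads in the controls and 5907 and 6963 with ATRA, which is 2.84-fold higher. PTPRC, the receptor phosphatase CD45 that removes the inhibitory phosphate of Src family kinases, was 3.17-fold higher, and the dual-specificity phosphatase DUSP22 2.52-fold. PTPN11 (SHP-2), INPP5D (SHIP-1) and CSK, the kinase that places that inhibitory phosphate, were not in the table. Of the 24 ITIM receptors, which recruit SHP-1, 9 were in the table, 8 higher and 1 lower, with a median log2 fold change of 3.39. CEACAM1, an adhesion receptor, had 14.6 and 13.4 normalized reads in the controls and 16136 and 14937 with ATRA, which is 1110-fold. LILRB2, a receptor for class I molecules, was 48.2-fold higher and CD300A, an inhibitory receptor of leukocytes, 13.2-fold. SIGLEC7, which binds sialic acid, was 297-fold higher over 1 control read (95% counting interval 57.6 to 12795), 148-fold without control library a.

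LAT was lower with ATRA, and its ATRA libraries lay far apart. The gene (chromosome 16, 28996147 to 29002105 on GRCh37, plus strand) had 567 and 449 normalized reads in the controls and 177 and 64.8 with ATRA. These are 583 and 402 reads in control libraries a and b, and 195 and 65 in ATRA libraries a and b. The mean went from 508 ± 83.2 (SD, n = 2) to 121 ± 79.6 (SD, n = 2), which is 4.19-fold lower. The lowest control library exceeded the highest ATRA library 2.53-fold. Leaving out ATRA library a made the gene 7.84-fold lower, and leaving out ATRA library b made it 2.86-fold lower. The annotation places 2 noncoding genes over LAT, 1 on the same strand across 5950 bases, nearly the whole gene, and 1 on the opposite strand across 1639 bases. Whether counting used strand is not given in the sources used here, and strand would not separate LAT from the gene on its own strand, so the reads of LAT may include those of either.

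RefSeq gives 2 promoter windows for LAT and 4 for RHOH. Windows of these genes are shown because both members were lower and their values ran together across the libraries.
LAT, chr16:28984802-28985101, plus strand: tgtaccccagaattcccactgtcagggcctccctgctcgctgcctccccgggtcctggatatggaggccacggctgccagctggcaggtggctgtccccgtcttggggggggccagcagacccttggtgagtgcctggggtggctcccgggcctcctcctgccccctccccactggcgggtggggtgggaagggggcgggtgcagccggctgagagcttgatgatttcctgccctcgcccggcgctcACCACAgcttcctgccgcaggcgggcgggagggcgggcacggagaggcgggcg
RHOH, chr4:40193413-40193712, plus strand: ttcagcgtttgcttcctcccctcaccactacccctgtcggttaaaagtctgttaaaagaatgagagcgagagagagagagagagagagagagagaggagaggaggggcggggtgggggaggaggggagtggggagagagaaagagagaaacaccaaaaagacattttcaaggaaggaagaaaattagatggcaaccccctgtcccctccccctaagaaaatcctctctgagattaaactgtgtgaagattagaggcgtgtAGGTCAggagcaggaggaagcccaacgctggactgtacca
The LAT window holds TGTGGT on the opposite strand at 3 bases before the start. The RHOH window holds AGGTCA at 10 bases after its start, which is present in 13.8% of all windows. Another RHOH window, which starts at base 40192709 and is not printed, holds AGGTCA on the opposite strand at 247 bases before its start. No motif of the search was found in both windows, and TTGCGCAA was found in no window of FGR, PTPN6, LAT or RHOH. CD3E was not matched to a window.

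Adaptors with a value went in both directions. The table held 10 of the 27 listed, 7 higher and 3 lower, with a median log2 fold change of 1.49. Among all listed genes 61.8% were higher, and the median was 1.22. The 3 lower ones, LAT, LAX1 and TRAT1, all span the membrane, and the 7 higher ones are all cytoplasmic. Only 3 of the 6 membrane-spanning adaptors on the list and 7 of the 21 others had a value. The grouping was made after the values had been seen, so no rule for adaptors follows from it. LAX1, a membrane adaptor of lymphocytes that limits receptor signals, had 194 and 197 normalized reads in the controls and 55.5 and 15 with ATRA. It was 5.55-fold lower, 13.1-fold without ATRA library a and 3.52-fold without ATRA library b. TRAT1, a membrane adaptor linked to the T cell receptor, had 96.3 and 173 in the controls and 31.8 and 11 with ATRA. It was 6.29-fold lower, 12.3-fold without ATRA library a and 4.23-fold without ATRA library b. Among the cytoplasmic adaptors SLA, which restrains receptor signals and lowers receptor levels, had 520 and 425 normalized reads in the controls and 17318 and 19078 with ATRA, which is 38.5-fold higher. The related SLA2 was 5.18-fold higher. LCP2, the SLP-76 adaptor that works together with LAT in T cells, is named after its value was seen. It had 2463 and 3782 in the controls and 8885 and 9704 with ATRA, 2.98-fold higher while LAT was lower.

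RHOH was lower with ATRA, and like LAT it had ATRA libraries far apart. The gene (chromosome 4, 40192631 to 40248587 on GRCh37, plus strand) had 1817 and 1543 normalized reads in the controls and 685 and 236 with ATRA. The lowest control library exceeded the highest ATRA library 2.25-fold. The mean went from 1680 ± 194 (SD, n = 2) to 461 ± 317 (SD, n = 2), which is 3.65-fold lower. It was 7.11-fold lower without ATRA library a and 2.45-fold lower without ATRA library b. No other gene within 100 kb of RHOH was in the table.

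Enzymes and exchange factors further down were mostly higher, as were 61.8% of all listed genes. The table held 11 of the 26 listed, 9 higher and 2 lower. Their median log2 fold change of 1.29 was close to the 1.22 over all listed genes. PIK3CG, a phosphoinositide kinase of leukocytes, went from 3245 and 2885 normalized reads to 26553 and 27522, which is 8.82-fold. The Ras exchange factors RASGRP4 and RASGRP3 were 27.6-fold and 8.78-fold higher. The lower genes were PLCG1, the phospholipase that binds LAT, and the calcium channel ORAI1. PLCG1 had 356 and 360 normalized reads in the controls and 54.6 and 62.8 with ATRA, which is 6.10-fold lower. ORAI1 was 2.06-fold lower.

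**Figure D3:**
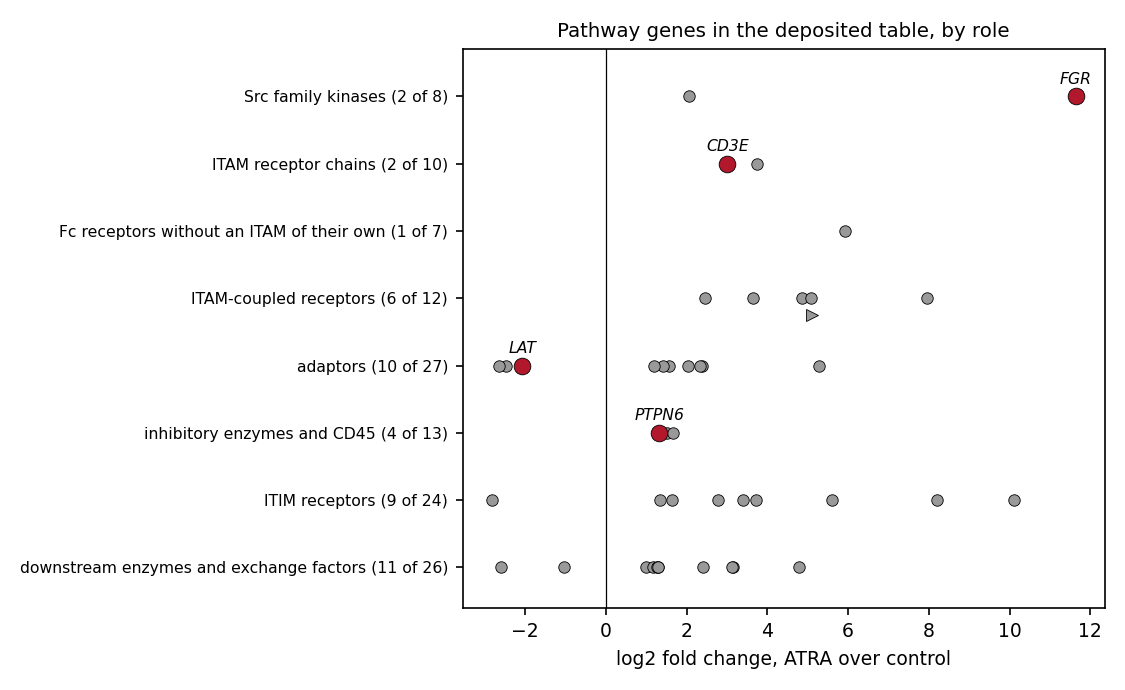
Log2 fold change of ATRA over control for the pathway genes in the deposited table, 1 row per list with the number present of the number on the list, members in red and other genes in gray. The triangle is the lower bound of TREM1, which had 0 control reads. Most points lie to the right of 0, and LAT lies to the left beside few others.

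Over 9 pathway lists 45 of 134 genes were in the table, or 33.6%, against 13.4% of all genes tested by the authors, and how many of the 134 were tested is not known. Of the 45 genes 39 were higher, or 86.7%, against 61.8% of all listed genes, and 6 were lower. Without the members 36 of 41 were higher, and the median log2 fold change was 2.33 beside 1.22 over all listed genes. The lower ones were LAT, LAX1, TRAT1, SIGLEC8, PLCG1 and ORAI1, and with RHOH, which is on none of these lists, they are called the 7 lower pathway genes. The lists were put together with earlier results of these data known, so these shares are a description.

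A distance like that between the ATRA libraries of LAT and RHOH was also seen in TRAT1, SIGLEC8 and LAX1. ATRA library a exceeded library b 2.74 times for LAT and 2.90 times for RHOH. It did so 2.90 times for TRAT1, 3.0 times for SIGLEC8 and 3.71 times for LAX1, whereas the ratio was 1.2 for ORAI1 and 0.869 for PLCG1. Thus 5 of the 7 lower pathway genes had over 2 times as many normalized reads in ATRA library a as in b. LAT and RHOH prompted this comparison and are counted in the 5. The others, LAX1, TRAT1 and SIGLEC8, had only 15, 11 and 7 reads in ATRA library b. Of the 611 lower listed genes with 10 or more ATRA reads, 35 had such a ratio, which is 5.73%, and the median ratio was 0.95. The ratio in the opposite direction was found in 3 of the 611. These 611 genes were not matched to the 7 in number of reads, so the shares are a description only. Controls did not lie as far apart in these genes, with ratios of library a to b between 0.556 for TRAT1 and 1.26 for LAT. SIGLEC8, an inhibitory receptor of eosinophils and mast cells, had 104 and 93.9 normalized reads in the controls and 20.9 and 6.98 with ATRA. It was 7.09-fold lower, 14.2-fold without ATRA library a and 4.73-fold without ATRA library b.

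**Figure D4:**
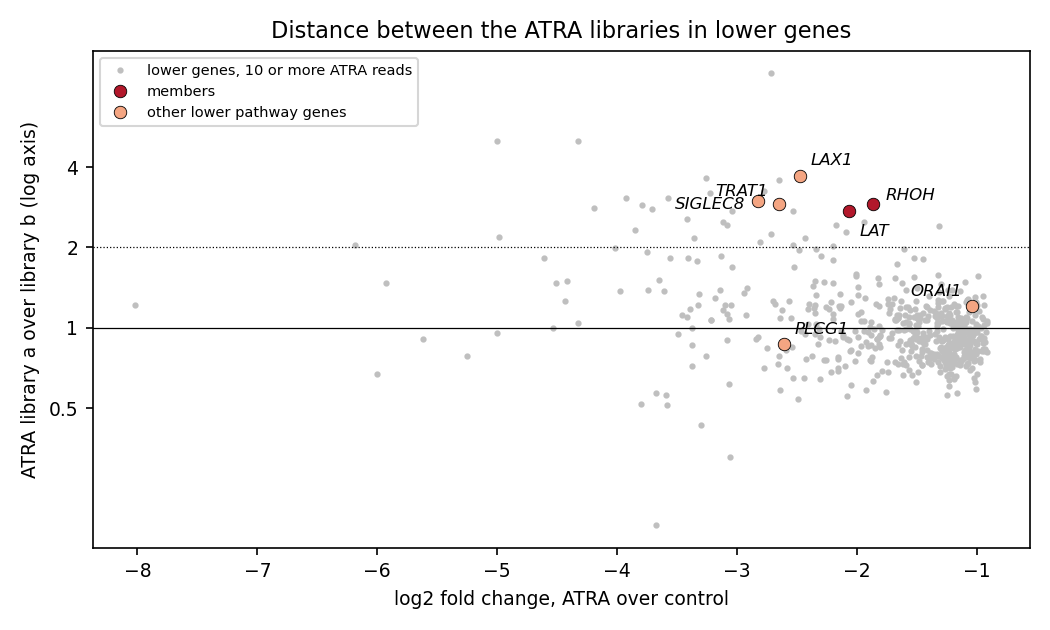
Ratio of ATRA library a to ATRA library b (log axis) against the log2 fold change, for lower listed genes with 10 or more ATRA reads in gray, LAT and RHOH in red and the other lower pathway genes in orange. The solid line marks equal libraries and the dotted line a ratio of 2. LAT, RHOH, LAX1, TRAT1 and SIGLEC8 lie between 2.74 and 3.71, above nearly all gray points, while PLCG1 and ORAI1 lie near 1.

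Some genes of eosinophils, basophils and mast cells showed a distance of this kind, and others did not. Of 16 such markers, chosen after the values had been seen, 6 were in the table, 5 lower and 1 (CCR3) higher. ATRA library a was above b in 5 of the 6, against 54.8% of all listed genes and 42.7% of the lower ones. SIGLEC8 is among both these markers and the lower pathway genes above, so this count is not separate from theirs. PRG2, a protein of eosinophil granules, had 37985 and 10604 normalized reads in ATRA libraries a and b, and 213827 and 91701 in the controls. Its control library a thus also exceeded control library b, 2.33 times. GATA2, a transcription factor of progenitors and mast cells, had 624 and 314 with ATRA and 8634 and 6594 in the controls. The ratio of ATRA library a to b was 1.99 for GATA2, 1.35 for IL5RA and 0.738 for CCR3. IL5RA had 218 and 162 normalized reads with ATRA and 1008 and 1919 in the controls, where library a was the lower one. CPA3, a mast cell protease, had 5 ATRA reads, all of library a. Summed over the 6 markers there were 39780 and 12344 normalized reads with ATRA and 223670 and 100418 in the controls, nearly all of them PRG2. Without PRG2 the sums were 1795 and 1739 with ATRA and 9843 and 8717 in the controls, but with ATRA they held mostly CCR3 (927 and 1257), the marker that was higher. The 4 other lower markers (GATA2, IL5RA, SIGLEC8 and CPA3) summed to 868 and 483 with ATRA and to 9841 and 8707 in the controls. Most of these reads were those of GATA2. Markers such as EPX, CLC, HDC and MS4A2 were not in the table, and the part of such cells in the values of LAT and RHOH was not tested.

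Levels of the members were compared per length, as normalized reads per kilobase of the joined exons of each gene. In the controls the order was PTPN6 (1277), RHOH (253), LAT (112), CD3E (7.16) and FGR (2.18 reads per kilobase). No neighbors in that order overlapped, and the closest were CD3E, at 5.49 and 8.82, and FGR, at 1.73 and 2.64. With ATRA the order was FGR (6948), PTPN6 (3201), RHOH (69.4), CD3E (57.6) and LAT (26.7 reads per kilobase). FGR and PTPN6 stood apart from each other and from the rest. RHOH, at 103 and 35.6, overlapped with CD3E, at 68.8 and 46.5, and with LAT, at 39.1 and 14.3. CD3E and LAT did not overlap. FGR thus moved from the last place to the first, and LAT from the third to the last.

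Genes with the most similar pattern were found by the root mean square distance of log2(normalized reads + 1) over the 4 libraries, each gene centered on its own mean, among 1646 other listed genes. LAT and RHOH were each other's nearest gene, at a distance of 0.10 on the log2 scale. Next to both came KLF11, a zinc finger repressor (0.12 from LAT and 0.15 from RHOH), and ZFPM1, the GATA cofactor FOG1 (0.15 and 0.16). KLF11 had 63.7 and 27.9 normalized reads with ATRA and 207 and 184 in the controls, and ZFPM1 had 74.6 and 29.9 against 242 and 159. Both thus also held over 2 times as many reads in ATRA library a. PTPN6 was closest to DUSP22 (0.012), with TMEM120A (0.028) and EPG5 (0.032) next. CD3E was closest to ABTB1 (0.054), SLFN5 (0.068) and TM6SF1 (0.12), and FGR to LOC100506585 (0.23), SELP (0.26) and LILRA5 (0.64), which each had few control reads. The 4 libraries of all these genes differ mainly by treatment, so such distances describe the size of the change and the order of the libraries.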

How the data were processed

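Poly(A) RNA of HL-60 cells was sequenced from 2 ATRA and 2 control samples. From the methods and the submitters' processing notes, reads were trimmed with cutadapt, cleared of ribosomal sequence with Bowtie, quantified with RSEM 1.2.7 on hg19 (GRCh37) and compared with DESeq2 1.4.5. The signal in the mean columns deposited by the authors is normalized reads averaged over a group, or over all 4 libraries. The remaining columns are the authors' fold and log2 fold changes, not used here, and their p-values. These deposited p-values, raw and adjusted, served only to find which genes the table holds and how many the adjustment covered.

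The printed means contain no digit 0, so each 0 was taken to have been written as 1. The steps between low means gave size factors of 1.10 and 1.00 (ATRA a and b) and 1.03 and 0.895 (control a and b). Whole reads were then searched that print the same mean, and all 1648 rows had 1 solution in both groups that also returned the mean over all libraries. The search for whole reads was tested on simulated data (Python 3.11.15, numpy 2.4.6, pandas 2.3.3, scipy 1.17.1). The true size factors were supplied there in case the steps were not found, so that run does not test their recovery.

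Members and lists were chosen with earlier results of these data known. Of the lists, 1 gene and 1 list are not reported here. No test was run, because the contrast chose the rows. Genes named are the members, up to 4 per list with the largest change, relatives of a member, and the 3 genes most like each member. LCP2, SIGLEC8, ORAI1, markers of eosinophils, basophils and mast cells, and listed neighbors were named after their values were seen. Positions and exons are from GENCODE 44 on GRCh37, and promoter windows from RefSeq on GRCh38.p14, which matched 4 of the 5 members. Ratios on few reads have exact 95% counting intervals. Alternatives were the printed means, other scalings, a pseudocount of 1, a minimum of 10 reads and leaving out each library.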

Additional observations from a re-analysis of the deposited data

How the results depend on the processing

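None of the 9 alternatives tried for each member reversed its direction. Since the libraries of the groups did not overlap in any listed gene, leaving out a library could not reverse one, and such directions and counts say nothing of stability. Scaling the reads to equal totals over the listed genes shifted the median log2 fold change of those genes by -0.44, and gave 11.19 for FGR and 0.88 for PTPN6. Of the genes in those totals 61.8% were higher with ATRA. Reads without size factors shifted the median by 0.13. Leaving out 1 library at a time gave a log2 fold change between 11.36 and 11.98 for FGR, 1.23 and 1.41 for PTPN6, -2.97 and -1.52 for LAT, -2.83 and -1.29 for RHOH, and 2.70 and 3.39 for CD3E. With LAT and RHOH, leaving out ATRA library a moved the fold change 1.87 and 1.95 times. No paired analysis was possible because the table holds group means, and the restored libraries carry no replicate number. Depth limits FGR and CD3E in the controls, which had 14 and 36 reads.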
